A study of Homo sapiens with 6 samples.

Results

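The alpha-2-macroglobulin (A2M) family of protease inhibitors and its clearance receptor were examined in A2780 cells with and without CDK12. The group held 5 genes, taken by symbol: the inhibitors A2M, A2ML1 and PZP, the related gene CPAMD8, and the receptor gene LRP1. They were 5 of the 60483 genes listed in the count table, and 4 of them were among the 16198 genes kept by the filter on low counts. A2780 is an ovarian carcinoma cell line. The study compared 3 libraries of A2780 WT cells, which carry unedited CDK12, with 3 libraries of A2780 CDK12 KO cells, edited with CRISPR/Cas9 in exon 1 of CDK12. CDK12 is a kinase that acts on RNA polymerase II. Both groups were grown in the same RPMI medium with fetal bovine serum, and the labels name no drug treatment. The KO group is 1 clone, and the study describes a doubled DNA content in it, so loss of CDK12, the choice of a clone and the change in ploidy cannot be told apart. The genes were chosen with their difference between KO and WT known, so their differences are given as a description, with no test.

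A2M is a large secreted inhibitor that traps proteases of all classes: a protease cuts the bait region, the molecule closes around it, and a reactive thioester can bind the enzyme covalently. PZP, pregnancy zone protein, and A2ML1, an inhibitor best known from the epidermis, work in a similar way, and CPAMD8 is a member of the same protein family with a Kazal-type domain. LRP1 is a large endocytic receptor of the LDL receptor family. It takes up A2M-protease complexes and many other ligands, and A2M also carries growth factors and cytokines. A2M of plasma is made mainly by the liver, with further production by fibroblasts and macrophages.

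The sequences before the starts of A2ML1, LRP1 and CPAMD8 are shown because these regions differ in composition. A link between composition and the direction of change was not tested, and A2M had no entry to show. Each line holds the 250 bases before a RefSeq start, from 5′ to 3′ on the strand of the gene, with matches to the searched motifs in capitals. The A2ML1 window is chr12:8822371-8822620 on the plus strand, the LRP1 window is chr12:57128233-57128482 on the plus strand and the CPAMD8 window is chr19:17026811-17027060 on the minus strand, all of build GRCh38.p14.
A2ML1: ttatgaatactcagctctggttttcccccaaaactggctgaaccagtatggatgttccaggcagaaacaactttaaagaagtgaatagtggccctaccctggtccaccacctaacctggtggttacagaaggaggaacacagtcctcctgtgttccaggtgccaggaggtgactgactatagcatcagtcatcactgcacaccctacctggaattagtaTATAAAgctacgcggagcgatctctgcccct
LRP1: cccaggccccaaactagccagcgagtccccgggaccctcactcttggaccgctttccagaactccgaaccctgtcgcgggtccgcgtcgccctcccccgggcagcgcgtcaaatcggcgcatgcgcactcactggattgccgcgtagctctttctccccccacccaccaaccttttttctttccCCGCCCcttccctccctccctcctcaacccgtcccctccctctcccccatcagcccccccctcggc
CPAMD8: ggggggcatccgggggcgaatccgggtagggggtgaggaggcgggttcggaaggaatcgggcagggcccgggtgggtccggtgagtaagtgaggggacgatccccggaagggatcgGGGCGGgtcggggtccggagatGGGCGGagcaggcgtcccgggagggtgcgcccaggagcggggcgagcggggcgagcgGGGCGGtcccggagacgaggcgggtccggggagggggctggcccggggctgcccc

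The motifs searched on both strands were the TATA box TATAAA, the CCAAT box CCAAT, the GC box GGGCGG, the AP-1 site TGANTCA and the STAT site TTCNNNGAA. The capitals in the A2ML1 window are a TATA box at bases 31 to 26 before the start, a motif held by 10.7% of the 35116 windows of this length. This window was 49.2% G and C and held 3 CpG dinucleotides, against medians of 58% and 11 over all windows. In the LRP1 window the capitals are a GC box on the opposite strand, at bases 66 to 61 before the start, and the window was 67.6% G and C with 20 CpG. In the CPAMD8 window they are 3 GC boxes, beginning 134, 112 and 55 bases before the start. That window was the richest in G and C of those shown, 77.6%, with 29 CpG. A GC box was found in 42.6% of all windows, and each GC box contains a CpG. Further RefSeq starts of A2ML1 and CPAMD8 are annotated. The window before the other A2ML1 start was 54.4% G and C with 9 CpG and held none of these motifs, and the window before the other CPAMD8 start was 71.2% G and C with 5 GC boxes. The PZP window was 43.2% G and C with no CpG and no match to the motifs. A match is only a run of letters, and no match says nothing about a factor.

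A2M was down-regulated in A2780 KO cells to the point that no read was assigned to it. A2M (ENSG00000175899) lies on chromosome 12 from 9067664 to 9116229 on the minus strand. It had 222, 246 and 74 counts in the WT libraries and 0 counts in each of the 3 KO libraries. Scaled to library size, the WT libraries held 8.10, 8.21 and 6.66 CPM (counts scaled to a fixed library total), a mean of 7.66 ± 0.863 CPM (SD, n = 3). All WT libraries were high, all KO libraries were empty, and the groups did not overlap. A count of 0 in a KO library still allows up to 3 counts, which is 0.169 CPM in the shallowest of them, so A2M was at least 45.4-fold lower in KO. Such floors cover counting error only. Among all listed genes, 71 had 10 or more counts in each WT library and 0 in each KO library, and 16 of these, A2M among them, were at or above the lowest A2M count of WT in every WT library.

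A2ML1 went the other way. A2ML1 (ENSG00000166535) lies on the same chromosome from 8822621 to 8887001 on the plus strand. It had 0, 0 and 1 counts in WT and 93, 89 and 70 counts in KO. The KO libraries held 3.78, 3.31 and 3.93 CPM, a mean of 3.67 ± 0.328 CPM (SD, n = 3). The gene was near absent from every WT library and present in every KO library. Against the floor of 3 counts in the shallowest WT library, 0.270 CPM, A2ML1 was at least 13.6-fold higher in KO. This bound is set by the depth of WT replicate 3, and without that library it was 33.5-fold. There were 124 genes with 10 or more counts in each KO library and at most 3 in each WT library, A2ML1 being one of them. By the same rule in the other direction, 190 genes had 10 or more counts in each WT library and at most 3 in each KO library. The 71 genes given for A2M are by the stricter rule of 0 counts in KO.

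PZP (ENSG00000126838), on chromosome 12 from 9148840 to 9208395 on the minus strand, had 0 counts in all 6 libraries. It was removed by the filter, and no difference could be computed. PZP was not detectable at this depth in either group.

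CPAMD8 was expressed at a low level in WT and lower still in KO. CPAMD8 (ENSG00000160111) lies on chromosome 19 from 16892951 to 17026815 on the minus strand. It had 49, 50 and 19 counts in WT and 1, 8 and 4 counts in KO. Its mean level was 1.72 ± 0.0606 CPM in WT libraries and 0.188 ± 0.132 in KO libraries (SD, n = 3 in both). The WT libraries lay close together in CPM, and the KO counts were too few to rank the KO libraries. The groups did not overlap, and the log2 fold change was -3.16 (SE 0.348), a level 8.96-fold lower in KO. Without KO replicate 2, the KO library with the most counts, it was 13.9-fold lower. Without KO replicate 1, the KO library with the fewest, it was 6.33-fold lower.

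LRP1, the receptor, was down-regulated but remained expressed. LRP1 (ENSG00000123384) lies on chromosome 12 from 57128483 to 57213361 on the plus strand, far from the A2M gene. It had 1766, 2205 and 810 counts in WT and 608, 775 and 481 counts in KO. In CPM these were 64.4, 73.6 and 72.9 in WT and 24.7, 28.8 and 27.0 in KO. The lowest WT library was above the highest KO library, and the means were 70.3 ± 5.10 and 26.9 ± 2.03 CPM (SD, n = 3 each). The log2 fold change was -1.38 (SE 0.0650), 2.61-fold lower in KO. LRP1 had the most counts of the group and the smallest standard error.

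**Figure D1:**
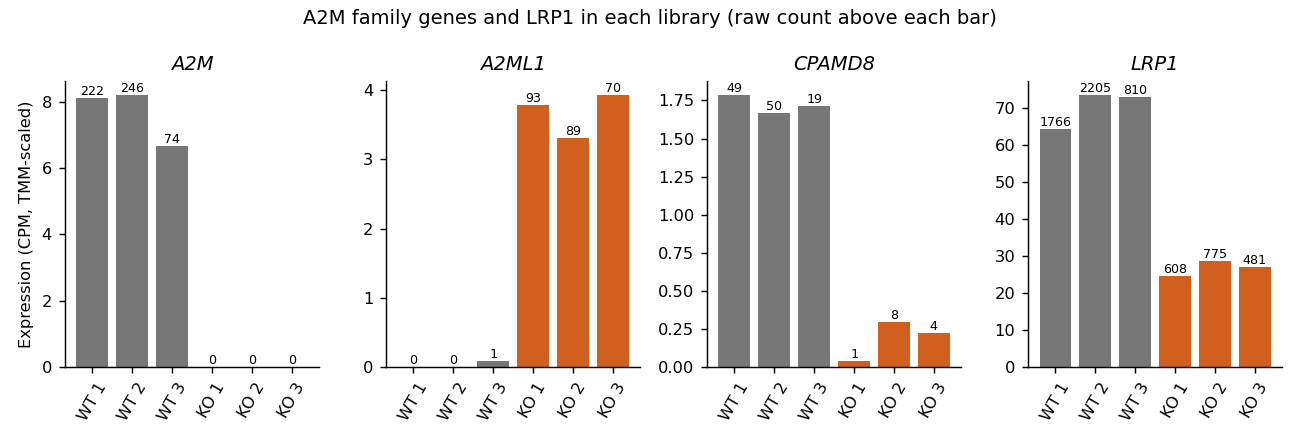
CPM of A2M, A2ML1, CPAMD8 and LRP1 in each of the 3 WT (grey) and 3 KO (orange) libraries, each panel with its own linear axis from 0 and the raw count above each bar. A2M is empty in KO, A2ML1 has 1 count in all of WT, and the WT and KO bars of CPAMD8 and LRP1 do not overlap.

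The study asked for an adjusted p under 0.05 together with a log2 fold change beyond 1 or -1. By these thresholds 3 of the 4 genes kept were lower in KO and 1 was higher. Over all tested genes 7.73% were lower and 8.3% were higher by the same rule, 16% in all. The 4 genes had groups that did not overlap, as did 66.4% of all tested genes. Since the genes were chosen on this contrast, nothing is read from these counts. As a description only, 408 tested genes had a lower log2 fold change than CPAMD8, and 903 had a lower one than LRP1.

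Levels of different genes can be compared only per length, here as TPM, counts divided by exon length and scaled to a fixed total. A2M stood at 4.18 ± 0.327 TPM in WT, and CPAMD8 at 0.584 ± 0.0251 TPM (SD, n = 3 each). LRP1 was the highest of the group in both, with 11.7 ± 1.15 TPM in WT and 4.60 ± 0.308 TPM in KO. In KO, A2ML1 stood at 1.84 ± 0.180 TPM and CPAMD8 at 0.0655 ± 0.0459 TPM. The order in WT was therefore LRP1, A2M, CPAMD8, A2ML1, and in KO it was LRP1, A2ML1, then CPAMD8 and A2M. Neighbours in the WT order, and LRP1, A2ML1 and CPAMD8 in KO, were separate in every library of the group, while CPAMD8 and A2M in KO cannot be ranked, both being within 3 counts of 0 in KO replicate 1.

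The summed level of the 3 inhibitor genes and CPAMD8 was 4.90, 4.97 and 4.46 TPM in WT and 1.92, 1.74 and 2.05 TPM in KO. Every KO library was under every WT library. A2M supplied 87.4% ± 1.78 of the sum in WT and none of it in KO. A2ML1 supplied 96.5% ± 2.61 of the sum in KO (SD, n = 3 each). CPAMD8 supplied 12.3% ± 1.22 in WT and 3.51% ± 2.61 in KO. The ratio of LRP1 TPM to this sum was 2.45 ± 0.358 in WT and 2.43 ± 0.326 in KO, and the libraries of the groups overlapped in it. The gene that made up most of the sum differed between the groups.

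**Figure D2:**
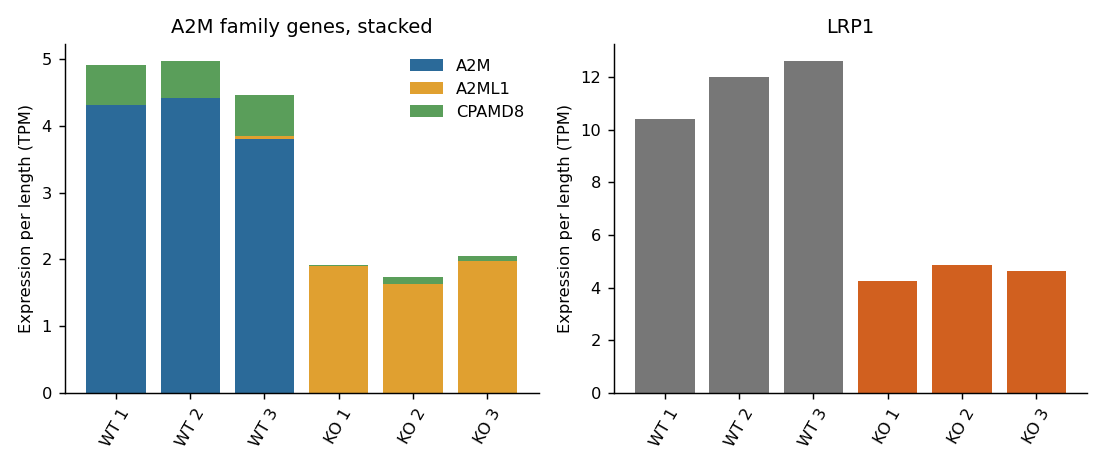
Left, TPM of A2M, A2ML1 and CPAMD8 stacked in each library; right, LRP1 TPM in the same libraries, both on linear axes from 0. The stack falls from 4.78 ± 0.281 TPM in WT, mostly A2M, to 1.90 ± 0.159 TPM in KO, mostly A2ML1, and LRP1 falls from 11.7 to 4.60 TPM.

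In bulk RNA, fewer cells that express a gene and less RNA of it per cell cannot be told apart, so a low level such as that of A2ML1 in KO may stand for all cells or a few. Antisense and pseudogene rows of the family held few reads. The antisense gene A2M-AS1 shares 561 exon bases with A2M and had 6, 6 and 1 counts in WT and 3, 2 and 1 in KO. The pseudogene A2MP1 had 5, 4 and 0 counts in WT and 0 in each KO library. A2ML1-AS1 had 1 count in all, and A2ML1-AS2 and LRP1-AS had none. The libraries were stranded, but the strand setting of the counting is not given in the sources used here, and without it reads of overlapping genes on opposite strands cannot be told apart. STAT6, which shares 59 exon bases with LRP1 on the opposite strand, had between 2311 and 6418 counts per library and a log2 fold change of -0.24 (SE 0.0478).

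Total counts ran from 11098400 to 30899045 per library, with WT replicate 3 the shallowest. CDK12 itself had 2831, 3759 and 1294 counts in WT and 2432, 2504 and 1818 in KO, 115 ± 11.1 and 98.0 ± 4.64 CPM, a log2 fold change of -0.23 (SE 0.0582; edgeR's quasi-likelihood test, Benjamini-Hochberg adjusted p = 0.00082). The edit lies in exon 1 and the count covers the whole gene, so this row does not check the edit. The labels do not say whether the libraries of a group came from separate cultures, and p-values then measure only the spread between these libraries, which may be technical. Below, adjusted p is from that same test over all 16198 genes.

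The complement proteins C3, C4 and C5 and the surface protein CD109 belong to the same superfamily as A2M. Of these 5 genes, 2 were tested, and neither passed the fold threshold. C5 rose from 12.7 ± 0.775 to 17.4 ± 1.5 CPM, a log2 fold change of 0.46 (SE 0.0850, adjusted p = 1.82e-05). C3, the central protein of complement, rose from 2.80 ± 0.745 to 4.52 ± 0.350 CPM, a log2 fold change of 0.64 (SE 0.157, adjusted p = 0.000707). C4A, C4B and CD109 were too low to test, and C4A and C4B are near-identical copies whose reads the counting could have split.

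Of the 17 relatives of LRP1 on the list of LDL receptor family genes, 13 were tested, of which 1 was higher and 1 was lower past both thresholds, a share near the 16% of all tested genes. By the adjusted p alone 4 were higher and 5 were lower, against 31.9% higher and 32% lower over all tested genes. The median log2 fold change of the 13 was -0.01, that of all tested genes 0.00. VLDLR, a receptor for apolipoprotein E and reelin, rose from 23.0 ± 1.85 to 56.6 ± 5.40 CPM (log2 fold change 1.29, SE 0.0707, adjusted p = 6.28e-17). LDLRAD4, which carries an LDL receptor class A domain and restrains TGF-beta signalling, fell from 79, 70 and 25 counts to 4, 6 and 2 (log2 fold change -3.83, SE 0.306, adjusted p = 1.16e-12). LRP8, the other reelin receptor, was at -0.04 (SE 0.0551, adjusted p = 0.578) and LRP12 at 0.04 on the log2 scale, and LDLRAD3 was at -0.01. LRP4 at -0.56, LRP11 at -0.44, SORL1 at -0.36 and LRP5 at -0.24 were lower by the adjusted p alone. LRP10 at 0.56, LRP3 at 0.37 and LRP6, a Wnt co-receptor, at 0.20 were higher by it. LRP1B, the closest relative of LRP1, had 3, 3 and 0 counts in WT and 0 in each KO library, and LRP2, LDLRAD1 and LDLRAD2 also stayed under the filter.

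**Figure D3:**
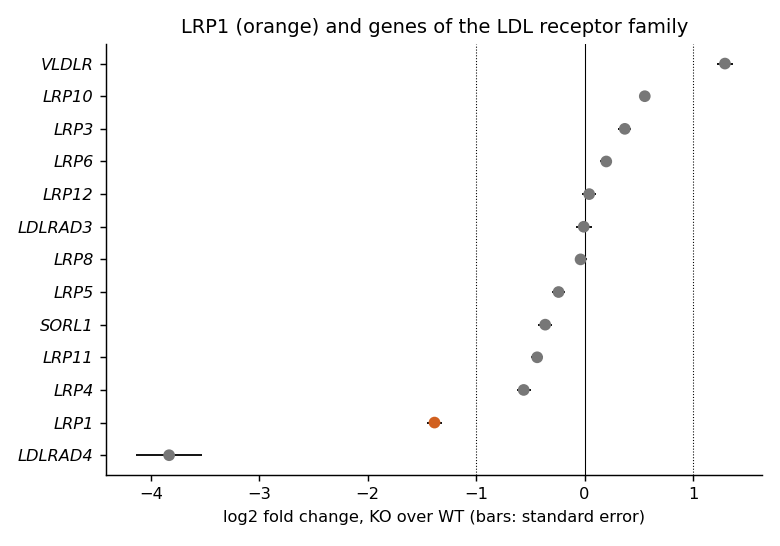
Log2 fold change of KO over WT for LRP1 (orange) and 12 of the 13 tested genes of the LDL receptor family (grey), with bars for the standard error and dotted lines at -1 and 1. VLDLR lies above 1, LRP1 at -1.38 and LDLRAD4 at -3.83 lie below -1, and the other 10 genes shown lie between the lines.

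Proteases that A2M can trap moved in both directions. Of 28 proteases on the list, 10 were tested: 5 were lower and 2 were higher past both thresholds. That is 50% and 20%, against 7.73% lower and 8.3% higher over all tested genes. This list and those below were chosen with earlier results known, so nothing is read from their shares. Their median log2 fold change was -2.23. MMP1, an interstitial collagenase, fell from 725 ± 9.55 to 4.82 ± 0.238 CPM, a log2 fold change of -7.22 (SE 0.0692, adjusted p = 1.2e-37). MMP10 at -8.00 and MMP3 at -7.77, the stromelysins, fell with it. MMP14, a membrane-bound collagenase and the other matrix metalloproteinase tested, had a log2 fold change of 0.13 (SE 0.0526, adjusted p = 0.0355), higher by the adjusted p alone. ADAMTS1, a protease of the proteoglycan versican, fell by 3.76 on the log2 scale. PLAU, urokinase, had 66, 73 and 29 counts in WT and 3, 0 and 0 in KO, at least 14.7-fold lower. ADAMTS4, an aggrecanase, rose from 18, 14 and 5 counts to 274, 283 and 248, a log2 fold change of 4.43 (SE 0.184, adjusted p = 3.85e-20), and KLKB1, plasma prekallikrein, rose by 1.91.

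Among growth factors and cytokines that A2M can carry, 10 of 17 were tested, and 4 were lower and 1 was higher past both thresholds. The shares were 40% and 10%, against 7.73% lower and 8.3% higher over all tested genes. The median was -0.39. TGFB2, a TGF-beta ligand, had 539, 597 and 233 counts in WT and 0, 1 and 1 in KO, at least 120-fold lower. The other TGF-beta ligands of the list passed the adjusted p alone. TGFB1 rose from 97.9 ± 3.75 to 151 ± 6.23 CPM, a log2 fold change of 0.63, and TGFB3 was at -0.37. PDGFB, a growth factor for pericytes and fibroblasts, had 288, 275 and 90 counts in WT and 1, 0 and 0 in KO, at least 55.0-fold lower. FGF2 fell from 21.7 ± 0.344 to 2.59 ± 0.234 CPM, and its log2 fold change was -3.06 (SE 0.105, adjusted p = 1.71e-22). INHBA, an activin subunit, had a log2 fold change of -1.22 (SE 0.305, adjusted p = 0.000815) at under 1 CPM.

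Other ligands of LRP1 were tested in 16 of 23 cases, and 6 were lower and 1 was higher past both thresholds. The shares were 37.5% and 6.25%, against 7.73% lower and 8.3% higher over all tested genes. The median was -0.57. CCN2, a matrix-associated growth factor, fell from 566, 524 and 221 counts to 10, 10 and 5 (log2 fold change -5.72, SE 0.167, adjusted p = 2.02e-24). APOE, the apolipoprotein of lipid transport, fell by 4.60. SERPINE2, an inhibitor of thrombin, fell by 2.70 on the log2 scale. TFPI, the inhibitor of tissue factor, rose from 1.97 ± 0.358 to 28.6 ± 2.01 CPM, a log2 fold change of 3.88 (SE 0.115, adjusted p = 2.72e-24).

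The genes that fold, cleave or bind LRP1 were measured in 20 of 23 cases, and 2 were higher and 1 was lower past both thresholds. The shares of 10% and 5% were near the 8.3% higher and 7.73% lower of all tested genes. Their median was 0.03. GULP1, an adaptor of the LRP1 tail used in engulfment, rose from 46.9 ± 0.450 to 129 ± 7.58 CPM, a log2 fold change of 1.46 (SE 0.0542, adjusted p = 1.76e-21). SHC1, an adaptor that binds phosphorylated LRP1, had a log2 fold change of 1.25, and APBB1, which links the tails of LRP1 and APP, of -1.54. LRPAP1, the chaperone that keeps ligands off newly made LRP1, was at 0.34 (SE 0.0508, adjusted p = 8.35e-07). FURIN, which cuts the LRP1 precursor, was at -0.25 (SE 0.0579, adjusted p = 0.000419), and the general chaperone HSPA5 at 0.16 (SE 0.0492, adjusted p = 0.0045). These 3 genes passed the adjusted p and not the fold threshold.

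**Figure D4:**
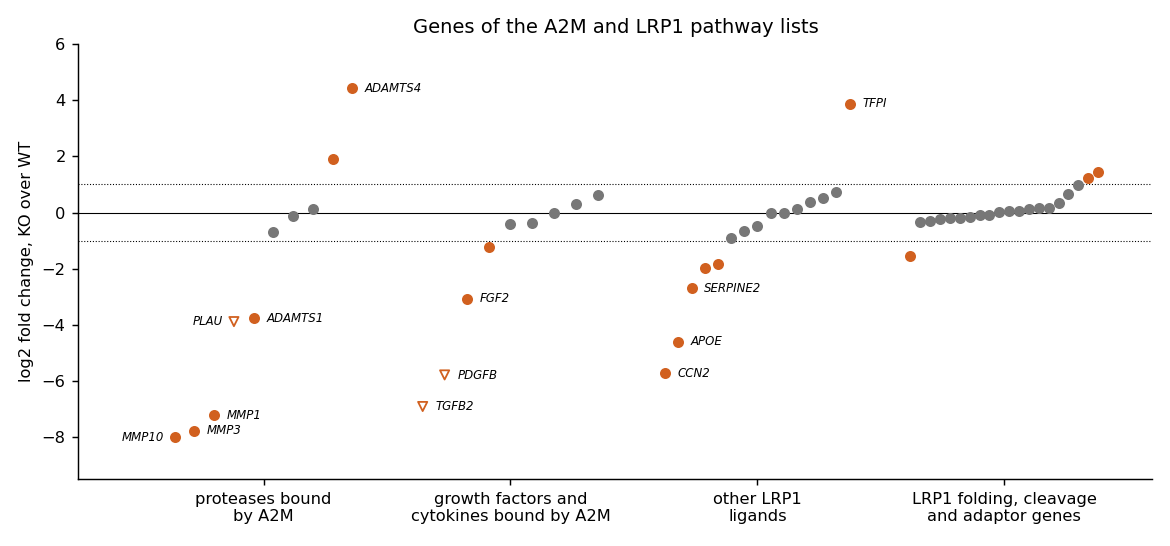
Log2 fold change of KO over WT for tested genes of 4 lists around A2M and LRP1, ordered by fitted value within a list; orange marks genes past both thresholds, open triangles mark genes with at most 3 counts in every KO library, drawn at their bound, and dotted lines lie at -1 and 1. MMP10, MMP3 and MMP1 lie below -7, and the folding, cleavage and adaptor genes stay between -1.54 and 1.46.

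A2M, A2ML1 and PZP lie together on chromosome 12, and their neighbours were read for both directions. Of 114 other listed genes within 1 Mb of them, 25 were tested, of which 4 were higher and 2 were lower past both thresholds. The shares were 16% and 8%, against 8.3% higher and 7.73% lower over all tested genes. By the adjusted p alone 13 of the 25 were higher and 3 were lower, against 31.9% higher and 32% lower over all tested genes. The median log2 fold change was 0.21. Between A2ML1 and A2M lie PHC1 at -0.06, M6PR at 0.09 and KLRG1 at -0.01, none of which passed the test. RIMKLB, the nearest tested gene on the other side of A2ML1, rose from 34.1 ± 1.86 to 78.9 ± 3.13 CPM, a log2 fold change of 1.22 (SE 0.0578, adjusted p = 1.32e-18). The pseudogene PTMAP4 at 1.27, beyond PZP, and the row ENSG00000275367 at 1.5 were also higher. ENSG00000256594 at -1.68 and ENSG00000257027 at -2.19 were lower.

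Around CPAMD8, 49 of 121 listed genes were tested, and 4 were lower and none was higher past both thresholds. The share of 8.16% lower was near the 7.73% of all tested genes, of which 8.3% were higher. By the adjusted p alone 8 of the 49 were higher and 21 were lower, against 31.9% higher and 32% lower over all tested genes. BST2, the interferon-induced membrane protein tetherin, fell from 126 ± 7.96 to 2.41 ± 0.397 CPM (log2 fold change -5.69, SE 0.0886, adjusted p = 3.75e-32) at 376124 bases from CPAMD8. SLC5A5 at -2.12, KCNN1 at -1.61 and ANKLE1 at -1.16 were the others. The adjacent genes SIN3B at -0.11 and HAUS8 at -0.43 did not pass the fold threshold. Around LRP1, 69 of 114 genes were tested, and 9 were higher and 4 were lower past both thresholds. The shares were 13.0% and 5.80%, against 8.3% higher and 7.73% lower over all tested genes. NXPH4, which begins 3433 bases beyond LRP1, had a log2 fold change of 1.95 (SE 0.108, adjusted p = 8.79e-17), the opposite sign to LRP1. Further away, INHBE at 4.61 was higher and TSPAN31 at -5.00 and AGAP2 at -3.71 were lower. GLS2, with 72, 78 and 36 counts in WT and none in KO, was at least 16.8-fold lower, and INHBC was at least 3.05-fold higher.

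**Figure D5:**
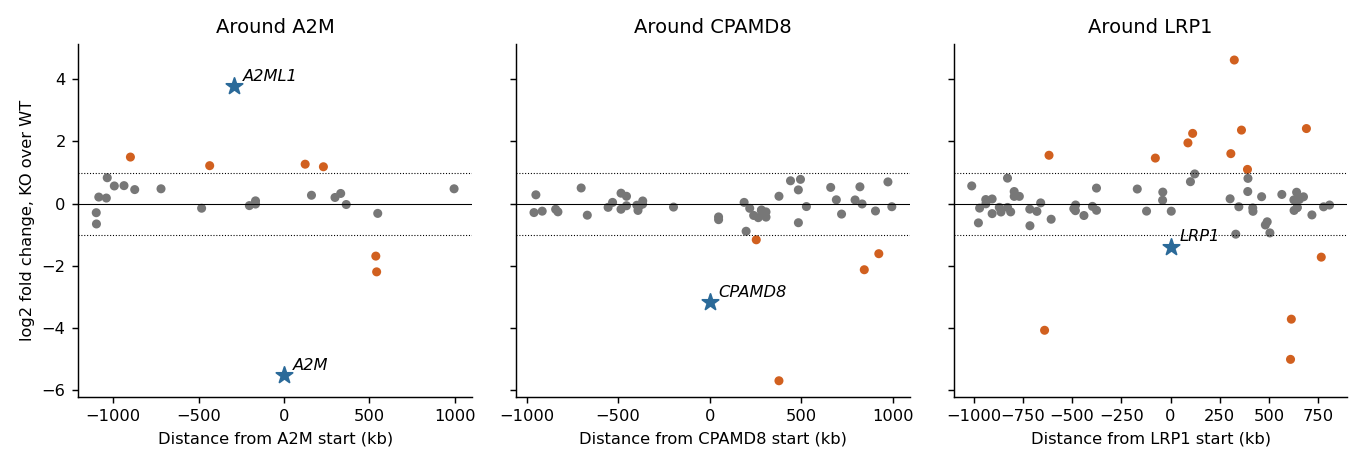
Log2 fold change of KO over WT against distance in kb from the start of A2M, CPAMD8 or LRP1 for tested genes within 1 Mb; orange marks genes past both thresholds, stars mark the family genes and LRP1, and genes with at most 3 counts in every library of a group (A2M, A2ML1, GLS2, INHBC) are drawn at their bounds. A2M lies at -5.51 and A2ML1 at 3.77 with the tested genes between them near 0, and LRP1 is flanked by genes in both directions.

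Genes with a pattern like that of each member were found by the root mean square difference of centred log2 CPM over the 6 libraries, among 12744 protein-coding genes. The log2 CPM used a prior count of 2, which largely sets the value of A2M in KO and of A2ML1 in WT. A2M was most like CKMT1A at 0.101, PSAT1 at 0.113 and IL1RAPL2 at 0.131. CKMT1A has a near-identical copy, so its count is uncertain. PSAT1, an enzyme of serine synthesis, had 2955, 3022 and 1094 counts in WT and 26, 28 and 16 in KO. Since A2M had 0 counts in KO, its likeness to PSAT1 depends on that prior. A2ML1 was most like ARHGAP6 at 0.163, TDRD6 at 0.181 and RAI2 at 0.182, each with at most 2 counts in any WT library. CPAMD8 was most like LMOD1 at 0.199, TRIM55 at 0.254 and PLEKHG4 at 0.290. LRP1 was most like SPSB1 at 0.0475, ITPRIPL1 at 0.0523 and CPNE2 at 0.0596. LRP1, with the most counts, had the smallest differences, and CPAMD8, with the fewest, had the largest.

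Markers of the cell types known to make these proteins were read beside the results. Of 10 fibroblast and pericyte markers, all had more than 3 counts in some library, and their summed level was 11276 to 11656 CPM in WT and 8734 to 9012 CPM in KO. COL1A1 at -2.37, PDGFRA at -2.63 and PDGFRB at -1.92 on the log2 scale were lower past both thresholds, and RGS5 at 1.29 was higher. DCN and LUM were at least 4.49-fold and 3.63-fold lower. By the adjusted p alone COL1A2 at -0.80 was lower and THY1 at 0.26 was higher. COL3A1 at -0.01 and CSPG4 at -0.05 did not pass the test. Of 8 hepatocyte markers, 4 had more than 3 counts in some library and the summed level was 0.900 to 1.13 CPM in WT and 1.91 to 2.49 in KO, with TF higher at 1.41 and APOB and TTR at 0. Of 8 macrophage markers, 4 had more than 3 counts, at 3.50 to 4.59 CPM in WT and 2.28 to 3.38 in KO, with CD163 lower at -1.51 and FCER1G at 1.26 and CD14 at 1.02 higher past both thresholds. Keratinocyte markers, those of the epidermis, were at 19.1 to 20.5 CPM in WT and 16.1 to 16.9 in KO, with 2 of 10 above 3 counts. These were KRT10 at -0.30, lower by the adjusted p alone, and TGM1 at -0.20, which did not pass the test. KRT1, KRT5, KRT14, FLG, SPRR1B and DSG3 were at 0 in every library of both groups. Of 8 endothelial markers, 3 had more than 3 counts, at 4.74 to 6.03 CPM in WT and 4.05 to 5.05 in KO, with VWF higher at 2.00 and CLDN5 at least 3.58-fold lower. The part of any of these marker genes in the results was not tested.

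Of 12 ovarian carcinoma and epithelial markers, 8 had more than 3 counts in some library, and the summed level was 68.7 to 74.2 CPM in WT and 115 to 119 CPM in KO. KRT18 at 0.78 and KRT8 at 0.56 on the log2 scale were higher and EPCAM at -0.53 was lower, by the adjusted p alone, and no other marker of this list could be tested. PAX8, a marker of serous ovarian carcinoma, had 6, 6 and 2 counts in WT and 3, 1 and 0 in KO, and SOX17 was at 0 in all libraries.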

How the data were processed

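There were 3 libraries from unedited A2780 cells and 3 from the CDK12 KO clone, with stranded single-end reads of 75 bases. The authors deposited raw counts per gene. Per the labels and the methods of the study, quality was checked with FastQC, reads were aligned with STAR to GRCh38 and counted with HTSeq-Count. Tool versions, annotation release, strand setting and the handling of reads with several matches are not given in the sources used here. Total counts ranged from 11098400 to 30899045, so 3 counts were at most 0.270 CPM.

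Groups were taken from the genotype in the labels. Identifiers were matched without version to GENCODE 44, which named 56321 (93.1%) of the genes. The groups were compared with edgeR 4.0.16 under R 4.3.3: filterByExpr (minimum count 10, minimum total 15), TMM scaling and the two-sided quasi-likelihood test with Benjamini-Hochberg adjustment over 16198 genes. Calls needed an adjusted p under 0.05 together with a log2 fold change beyond 1 or -1. Each standard error (SE) is the absolute log2 fold change divided by the square root of the F statistic of the quasi-likelihood test. It is derived from the test and is not an output of the fit. CPM used TMM-scaled totals, and TPM used the union exon length. Where a group had at most 3 counts in every library, the fold is a bound against 3 counts in the shallowest library of that group. The biological coefficient of variation was 4.35%. Alternatives were voom/limma (limma 3.58.1), DESeq2 1.42.0, other scalings and filters, the adjusted p alone, and the omission of each library. The fits were tested on simulated data. Python 3.11.15 with numpy 2.4.6 and pandas 2.3.3 was used otherwise. Promoter windows are from RefSeq, where 4 of the 5 genes had an entry; A2M had none.

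The 5 genes, the 8 pathway lists and the 6 marker lists were chosen with earlier results of these data known, and lists were written from general knowledge. Named genes are the 5 genes and their antisense and pseudogene rows, the genes past both thresholds in each list or neighbourhood (the 5 with the largest change where more passed), tested genes of the LDL receptor family and of the superfamily, LRPAP1, FURIN, HSPA5, CDK12 and the 3 most similar genes per member. STAT6, ADAMTS1, KLKB1, MMP14, TIMP2, RECK, LRP1B, TGFB1, TGFB3, IL6ST, STAT3, genes beside a member and the markers named by value were added after their values were seen. Some genes of the lists are counted in them but are not reported here and not plotted.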

Additional observations from a re-analysis of the deposited data

How the results depend on the processing

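Of 226 values recomputed for 18 results, 202 stayed with the reported value and 24 moved. Direction could be followed only for the log2 fold changes of CPAMD8, LRP1 and CDK12, which kept their sign in every setting. A count of genes has no direction, and empty or near-empty groups set that of the A2M and A2ML1 bounds. The rule for staying was loose for counts of genes: 3567 genes called with no filter, against 2597, were taken as staying. The bounds of A2M and A2ML1 come from counts and library scaling, so the choice of test could not move them. The adjusted p was followed across settings for CDK12 only, and it stayed under 0.05. A minimum of 10 counts in every library removes genes that are empty in a group: 1252 genes were called, 1 of the 5 genes of interest (LRP1, an alternative added after seeing the data), 1 in the LDL receptor family, 4 proteases, 1 growth factor, 3 other LRP1 ligands, 1 acute phase gene, 3 neighbours of A2M and 4 of LRP1. With the adjusted p alone the counts were 10353 over all genes, 2 superfamily relatives, 9 in the LDL receptor family, 9 growth factors, 14 LRP1 ligands, 14 folding and adaptor genes, 17 other protease inhibitors, 11 acute phase genes, and 16, 29 and 50 neighbours of A2M, CPAMD8 and LRP1. With no filter, 4 acute phase genes were called. When single libraries were left out, the log2 fold change ran from -3.80 to -2.66 for CPAMD8, from -1.45 to -1.33 for LRP1 and from -0.32 to -0.16 for CDK12. The bound ran from -5.97 to -5.46 for A2M, 43.9-fold to 62.7-fold lower, the largest without KO replicate 3, and from 3.72 to 5.06 for A2ML1. Genes called ran from 2723 to 2809 over all genes, and by list 0 relatives, 2 in the LDL receptor family, 7 proteases, 4 to 5 growth factors, 7 LRP1 ligands, 3 to 4 folding genes, 9 to 10 inhibitors, 2 acute phase genes, 6 to 7, 4 and 12 to 17 neighbours of A2M, CPAMD8 and LRP1, and 4 of the 5 genes of interest. No paired analysis was possible because the labels number the libraries 1 to 6 and share no number between groups. Depth limits PZP and the KO level of A2M, for which 3 counts remain possible, and CPAMD8 in KO, which rests on 13 counts.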

Other observations

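Protease inhibitors outside the A2M family moved in both directions. Of 41 on the list, 19 were tested, and 6 were lower and 4 were higher past both thresholds, with a median log2 fold change of -0.66. The shares were 31.6% and 21.1%, against 7.73% lower and 8.3% higher over all tested genes, in a list chosen with earlier results known. SERPINB9, the inhibitor of granzyme B, fell from 341 ± 20.9 to 1.79 ± 0.375 CPM (SD, n = 3 in each group), its log2 fold change being -7.55 (SE 0.0886; edgeR's quasi-likelihood test, Benjamini-Hochberg adjusted p = 1.2e-35). TIMP1, an inhibitor of matrix metalloproteinases, rose from 319 ± 10.7 to 1209 ± 39.5 CPM, a log2 fold change of 1.92 (SE 0.0494, adjusted p = 5.16e-26). TIMP2 at -1.66 and RECK at -1.27, which also inhibit matrix metalloproteinases, were lower past both thresholds. SERPINE2 and TFPI, which are also on the list of LRP1 ligands, are described with them.

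A2M is an acute phase gene in some species and a target of IL6 and STAT3 signalling. Of 28 genes on a list of acute phase and IL6-STAT3 genes, 15 were tested, of which 2 were lower and 0 were higher past both thresholds. The share lower was 13.3%, against 7.73% lower and 8.3% higher over all tested genes. By the adjusted p alone 7 were higher and 4 were lower. SOCS3, a feedback inhibitor of this pathway, fell from 856, 905 and 368 counts in WT to 24, 25 and 6 in KO, a log2 fold change of -5.30 (SE 0.138, adjusted p = 8.16e-26). PIM1, a kinase induced by STAT factors, fell by 3.28 on the log2 scale (SE 0.105, adjusted p = 2.7e-23). The other 13 tested genes stayed within the fold threshold. A part of IL6 and STAT3 signalling in the level of A2M was not tested.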
